A study of Mus musculus with 48 samples.

Results

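The genes described here are 9 genes of amino acid and methyl group breakdown, Bhmt, Gldc, Aldh1l1, Psph, Aass, Kmo, Aldh4a1, Arg2 and Odc1, of 18193 genes named on the arrays. All 13 probe sets annotated to them on the 430A and 430B chips were taken, and 1 of these is on both chips, giving 14 measurements, of which 13 passed the filter on dim signals. They were chosen by hand, partly for the differences in signal between genotypes or diets in these same data. Those differences are therefore given as values that test nothing, and any count of them past a threshold is a description. The same holds for the genotype by diet terms of these genes, which lie close to those contrasts. Differences between the sexes, which did not enter the choice, were tested. Whole-kidney RNA was measured in 24 pools of 3 mice (72 mice, aged 10 weeks), in 8 groups of 3 pools, with each pool on 2 chips (48 arrays). The groups were hemizygous Hyp (Hyp/Y) males, heterozygous Hyp (Hyp/+) females and normal littermates of each sex, each on a control or a low phosphorus Teklad diet for 3 days. All of them drank deionized water. Hyp is a mutation of Phex on the X chromosome that causes X-linked hypophosphatemia, and 1 label names C57BL/6J mice as the source. Among Hyp pools, sex cannot be told apart from the hemizygous or heterozygous state. The same holds where genotype differences are compared between the sexes. No label says how mice were allotted to pools, so p-values measure the spread between these pools.

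The kidney takes up filtered amino acids and breaks many of them down, mostly in the proximal tubule. Betaine-homocysteine methyltransferase (Bhmt) moves a methyl group from betaine to homocysteine to make methionine, glycine decarboxylase (Gldc) and the folate dehydrogenase Aldh1l1 pass carbon through the folate pool, and Psph makes serine. Aass opens lysine breakdown, Kmo hydroxylates kynurenine from tryptophan, Aldh4a1 finishes proline breakdown, and mitochondrial arginase (Arg2) makes ornithine, from which Odc1 makes putrescine, the first polyamine.

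The sexes differed in 8 of the 9 genes. Arg2, Bhmt, Gldc and Psph were higher in females, by 5.12-, 3.88-, 1.85- and 1.27-fold, and Odc1, Aass, Aldh1l1 and Aldh4a1 were higher in males, by 2.39-, 1.59-, 1.26- and 1.24-fold (12 pools against 12, limma adjusted p from 1.59e-12 to 0.00904). Kmo was the 1 gene not called, at a log2 difference of 0.04 ± 0.07 (SE; 95% interval -0.10 to 0.18, adjusted p = 0.781). Over all 18642 features tested, 15.8% were called for sex, 6.07% higher and 9.78% lower in males. The median size of the sex difference was 0.67 on the log2 scale over the 9 genes and 0.16 over all features. The split of the background depends on scaling: 1131 features were higher and 1823 lower in males, against 1697 and 970 with arrays scaled to a common median, which also ended the call for Psph (-0.24). On the low phosphorus diet all 9 genes had a lower mean signal on the log2 scale, and in Hyp pools 7 had a higher one. Among the 7, Odc1 (0.01) and Aldh1l1 (0.04) differed by less than their standard errors. The median over all features was 0.01 for diet and -0.00 for genotype. Both contrasts were used in the choice of the genes, so these counts test nothing.

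**Figure D1:**
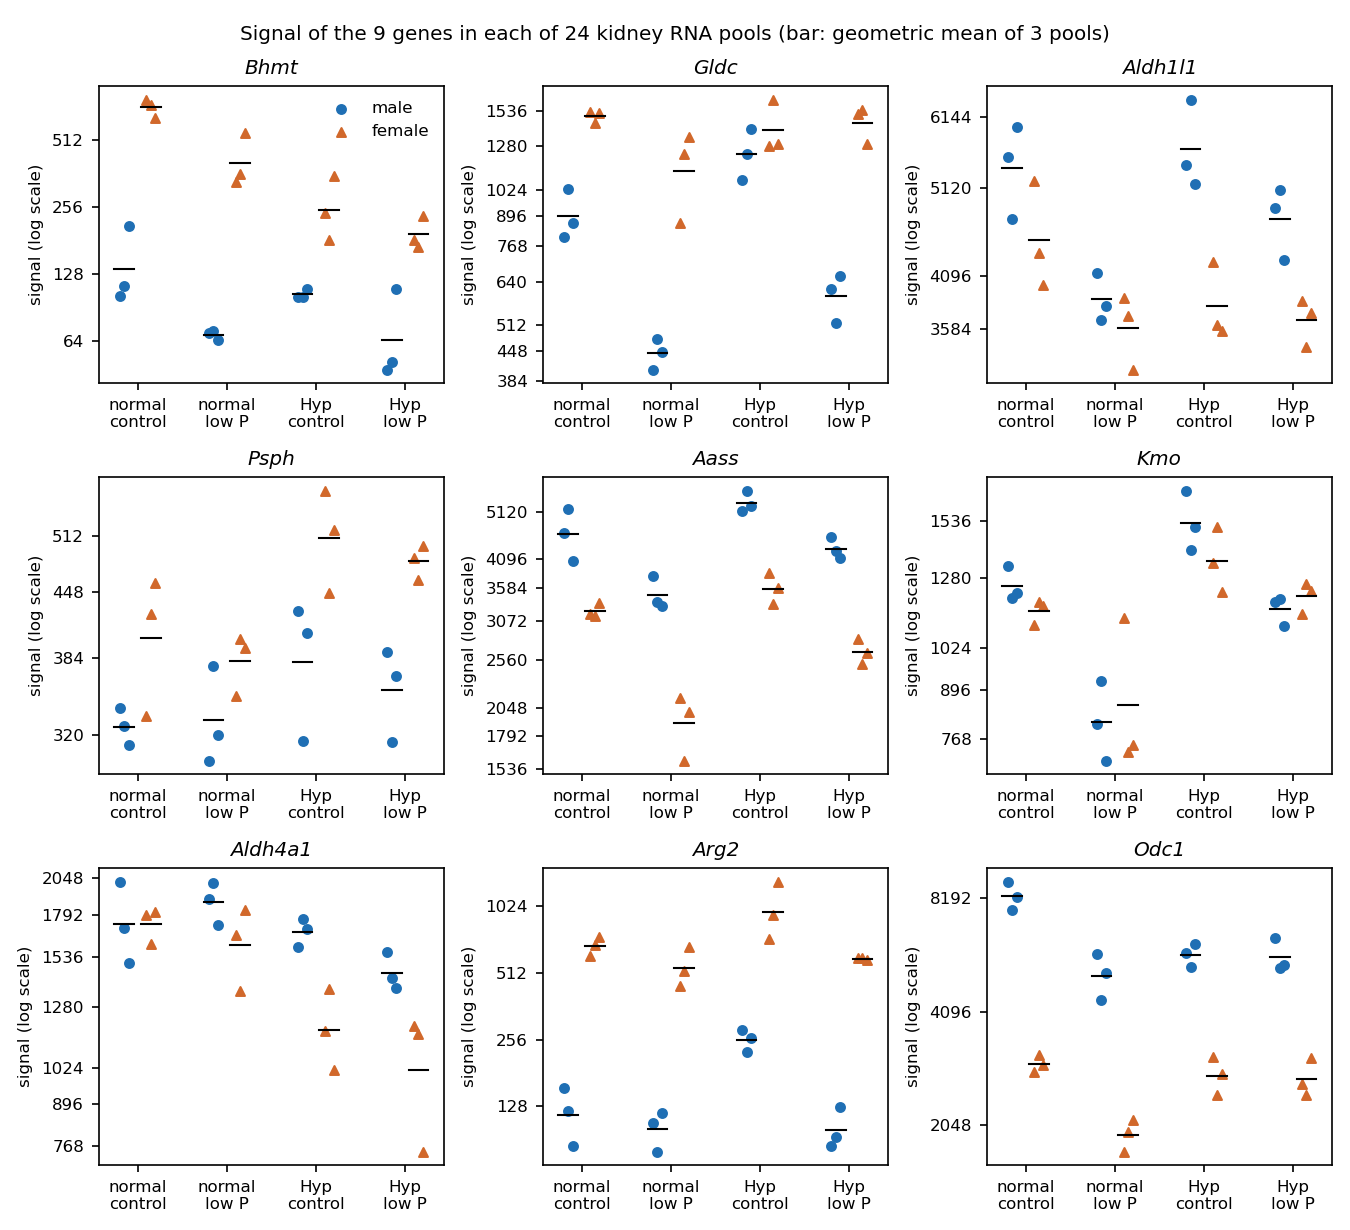
Signal of each of the 9 genes in each of the 24 pools, on a logarithmic axis scaled separately for each gene, by genotype and diet (low P, low phosphorus); circles are male pools, triangles female pools and bars the geometric mean of 3 pools. Male and female pools of Arg2 and Odc1 do not overlap over all 24 pools.

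**Figure D2:**
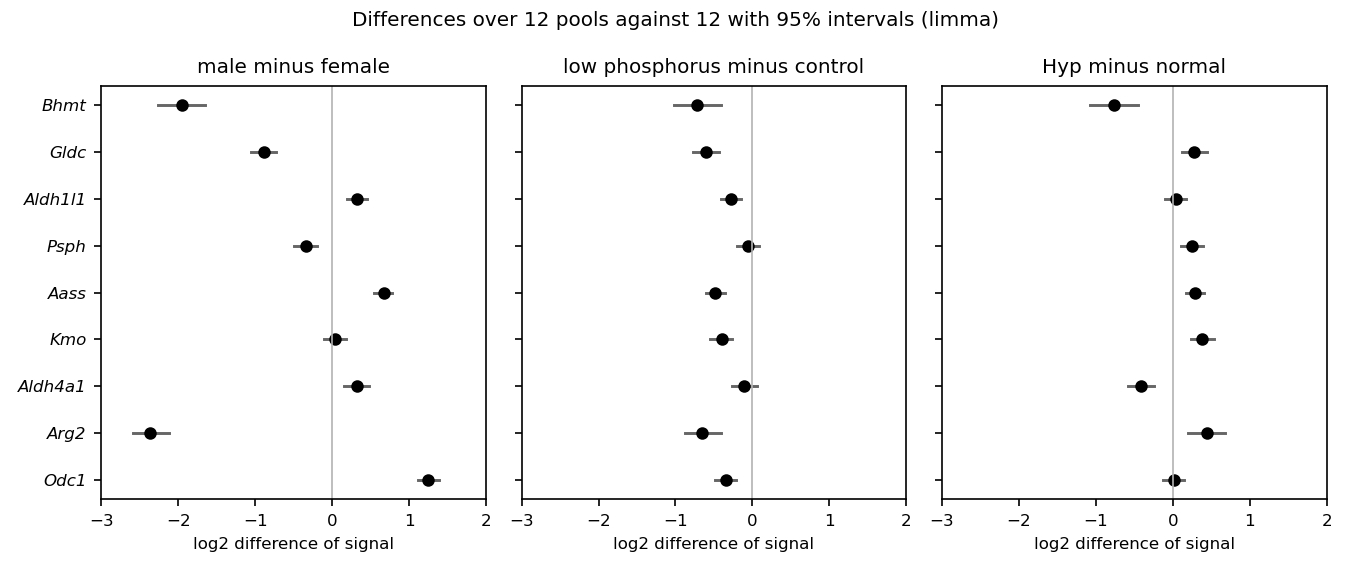
Log2 difference of signal for the 9 genes between the sexes, diets and genotypes, each 12 pools against 12, with 95% intervals from limma. All 9 diet differences lie below 0, from -0.72 for Bhmt to -0.06 for Psph, and the sex differences run from -2.36 for Arg2 to 1.25 for Odc1. The genes were chosen partly on the diet and genotype contrasts.

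Before the values, the sequence upstream of 3 of the genes is shown, picked with their values known. Bhmt and Gldc were both higher in females and Aass in males, while all 3 were lower on the low phosphorus diet. Whether these sequences bear on those differences was not tested. The 250 bases before each start site come from the RefSeq promoter table (GRCm38.p6) and are printed along the gene's own strand, which is the minus strand for all 3. They cover chr13:93637759-93638008 for Bhmt, chr19:30175442-30175691 for Gldc and chr6:23132987-23133236 for Aass. Capitals mark CCAAT boxes, which read ATTGG on the strand printed.
Bhmt: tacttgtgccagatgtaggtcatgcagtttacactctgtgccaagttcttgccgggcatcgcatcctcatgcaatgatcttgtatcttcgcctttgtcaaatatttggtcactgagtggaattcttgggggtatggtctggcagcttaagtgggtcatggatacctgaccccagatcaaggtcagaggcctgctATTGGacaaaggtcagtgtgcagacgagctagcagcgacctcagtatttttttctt
Gldc: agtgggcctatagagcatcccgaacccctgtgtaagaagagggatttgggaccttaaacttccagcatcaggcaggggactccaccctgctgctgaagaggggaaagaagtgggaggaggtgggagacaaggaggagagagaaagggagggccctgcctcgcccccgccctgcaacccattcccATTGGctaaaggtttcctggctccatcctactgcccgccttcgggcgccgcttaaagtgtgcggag
Aass: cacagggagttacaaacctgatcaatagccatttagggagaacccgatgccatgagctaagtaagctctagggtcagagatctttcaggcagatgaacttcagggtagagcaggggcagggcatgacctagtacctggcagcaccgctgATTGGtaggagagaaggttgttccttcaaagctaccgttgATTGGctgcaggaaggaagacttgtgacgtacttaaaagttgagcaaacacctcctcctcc
Of the 9 genes 8 had an entry in the table, and Arg2 is named only. In all, 6 motifs were searched on both strands of these windows: the E-box CACGTG, the palindromic androgen response element, the palindromic HNF1 site, the TATA box TATAAA, the CCAAT box CCAAT and the cAMP response element TGACGTCA. Of these the CCAAT box was found, in 6 of the 8 genes (not in Kmo or Odc1), and 34.5% of 27025 promoters held it. Its first base lay 56 bases before the start of Bhmt, 66 before that of Gldc, and 101 and 61 before that of Aass. The other motifs, held by 6.05%, 0.0037%, 0.0074%, 13.0% and 1.62% of promoters in the order named, were in none of the 8 windows. The Odc1 window was the richest of these 8 in G and C, at 80.0% against a median of 52.0% over all promoters.

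Bhmt was measured by 1 probe set and was dim in most male pools. It exceeded the array median in 3 of 6 Hyp female pools, so the Hyp female values are partly dim too. In normal females its signal was 781.7, 736.5 and 648.4 on the control diet, and 331.3, 361.8 and 549.7 with low phosphorus. In Hyp females it was 240.2, 181.9 and 354.8 on the control diet, and 182.5, 169.4 and 234.7 with low phosphorus. Normal females on the control diet thus stood above all other groups, and the Hyp females on that diet overlapped the normal females on the low phosphorus diet. In normal males it was 102.3, 113.8 and 211.5 on the control diet, and 69.6, 70.8 and 65.0 with low phosphorus. In Hyp males it was 101.2, 101.0 and 110.3 on the control diet, and 47.7, 51.8 and 109.7 with low phosphorus. Each of the 4 male groups lay wholly below the female group of the same genotype and diet, although the highest male pool exceeded the lowest females of the Hyp groups.

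The sex difference of Bhmt was -1.95 ± 0.15 on the log2 scale (male minus female, limma adjusted p = 3.11e-09). Within genotype and diet it ran from -2.56 to -1.26. Bhmt exceeded the array median (164.6 to 211.1 on the 430A chip) on 10 arrays, 9 of them female, so it passed the filter on dim probe sets mainly through females; with every probe set fitted and no filter it gave the same difference with an adjusted p of 7.10e-08. With 50 added to each signal the difference was -1.50. The diet difference was -0.72 ± 0.15, negative in all 4 combinations of genotype and sex (-0.98 to -0.37). The genotype difference was -0.76 ± 0.15, with -1.30 ± 0.21 in females and -0.23 ± 0.21 in males. The difference between these, 1.07 ± 0.30, did not pass (adjusted p = 0.424).

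Bhmt2, the neighbouring gene on chromosome 13, encodes a related enzyme that uses S-methylmethionine. It differed between the sexes in the opposite direction: males averaged 1861 ± 256 (SD, n = 12) and females 1218 ± 267 (log2 0.63 ± 0.10, adjusted p = 8.61e-05). Its genotype difference was 0.09 ± 0.10 and its diet difference -0.23 ± 0.10. The probe set used for Bhmt2 is of the kind that can match several transcripts, and cross-hybridisation between the pair was not tested.

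Gldc, the subunit of the glycine cleavage system that releases carbon dioxide from glycine, was above the array median on all 24 arrays. In normal males its signal was 805.6, 1026.9 and 864.7 on the control diet, and 407.7, 476.1 and 446.7 with low phosphorus. In Hyp males it was 1077.3, 1229.4 and 1401.5 on the control diet, and 615.8, 516.6 and 659.8 with low phosphorus. In both genotypes the male pools on the low phosphorus diet lay wholly below those on the control diet. In normal females it was 1528.4, 1442.5 and 1517.2 on the control diet, and 865.8, 1232.8 and 1343.6 with low phosphorus. In Hyp females it was 1281.3, 1626.5 and 1293.1 on the control diet, and 1512.9, 1538.8 and 1293.3 with low phosphorus. The Hyp females overlapped between diets, and on the control diet Hyp males also overlapped Hyp females.

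Over all pools Gldc was lower in males by a log2 difference of -0.89 ± 0.08 (limma adjusted p = 2.84e-08), with male and female pools apart in 3 of the 4 combinations of genotype and diet. The genotype difference was 0.28 ± 0.08. The diet difference was -0.60 ± 0.08 over all pools, -1.03 ± 0.11 in males and -0.18 ± 0.11 in females. The Gldc diet by sex term, -0.85 ± 0.15 (95% interval -1.18 to -0.53), had an adjusted p of 0.0977 and so did not pass. It passed with a trended, robust variance (adjusted p = 0.0350) and when the normal low phosphorus female pool of series number 1, the lowest female pool, was left out (-0.95, adjusted p = 0.0229), but not with 50 added to each signal (0.0887) or with median scaling (0.414). Over all 18642 features limma called none for this interaction; 1019 lay under 0.05 before adjustment, where chance gives 932.

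Aldh1l1, which oxidises 10-formyltetrahydrofolate, was measured by 1 bright probe set, and by a second that was below the array median on all arrays and was not used. Male pools ran from 3668.4 to 6418.3 (median 4987.5) and female pools from 3231.1 to 5214.8 (median 3789.6). The sex difference was 0.33 ± 0.06 (adjusted p = 8.47e-04), and the pools were apart in 2 of the 4 combinations of genotype and diet. The diet difference was -0.28 ± 0.06. It was -0.48 ± 0.13 in normal males, -0.32 ± 0.13 in normal females, -0.26 ± 0.13 in Hyp males and -0.05 ± 0.13 in Hyp females, and the genotype difference was 0.04 ± 0.06.

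Psph, the phosphatase of the last step of serine synthesis, was measured on both chips with the same probe set, which is also among the 100 probe sets the arrays were scaled to. On the 430A chip male pools ran from 301.3 to 428.6 (median 333.7) and female pools from 334.6 to 569.5 (median 452.6). The sex difference there was -0.34 ± 0.07 (adjusted p = 0.00139), and the 430B chip gave -0.30 ± 0.08 (adjusted p = 0.0181, each kept probe set tested). The genotype difference was 0.25 ± 0.07 and 0.38 ± 0.08 on the chips in that order, and the diet difference -0.06 ± 0.07 and -0.12 ± 0.08. In the series numbered 2 in the titles the 430A genotype difference was -0.01, against 0.48 and 0.28 in the other series.

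Aass, the bifunctional enzyme that turns lysine into saccharopine and cleaves it, had separate male and female pools in all 4 combinations of genotype and diet. In normal males its signal was 4628.6, 5193.0 and 4059.9 on the control diet, and 3794.3, 3352.5 and 3294.5 with low phosphorus. In Hyp males it was 5127.1, 5654.1 and 5256.3 on the control diet, and 4554.9, 4258.8 and 4127.0 with low phosphorus. In both genotypes the male pools of the diets did not overlap. In normal females it was 3176.3, 3149.1 and 3335.7 on the control diet, and 2144.3, 1599.3 and 2010.5 with low phosphorus. In Hyp females it was 3837.9, 3327.1 and 3578.6 on the control diet, and 2819.6, 2512.8 and 2640.7 with low phosphorus. The normal females on the low phosphorus diet were the lowest group, below every other pool.

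The sex difference of Aass was 0.67 ± 0.06 on the log2 scale (limma adjusted p = 2.28e-08). Its diet difference was -0.48 ± 0.06, with the diets apart in all 4 combinations of genotype and sex (-0.76 to -0.31). The genotype difference was 0.29 ± 0.06, positive in all 4 combinations of diet and sex (0.15 to 0.48). None of its interactions passed the adjusted threshold, which for genotype by diet is a description.

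Kmo, a mitochondrial flavin monooxygenase, was the gene whose genotypes were apart in every combination of diet and sex. In normal males its signal was 1331.2, 1200.8 and 1221.9 on the control diet, and 805.1, 924.5 and 717.0 with low phosphorus. In Hyp males it was 1690.8, 1399.6 and 1505.5 on the control diet, and 1188.3, 1199.2 and 1099.8 with low phosphorus. Hyp males on the low phosphorus diet thus lay just below normal males on the control diet. In normal females it was 1104.2, 1186.4 and 1170.3 on the control diet, and 1126.6, 735.7 and 752.7 with low phosphorus. In Hyp females it was 1343.3, 1506.8 and 1225.2 on the control diet, and 1141.3, 1258.1 and 1229.1 with low phosphorus. One normal female pool on the low phosphorus diet lay within the range of the control diet and apart from the other two. The genotype difference was 0.38 ± 0.07 and the diet difference -0.40 ± 0.07.

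Aldh4a1, which oxidises glutamate semialdehyde from proline to glutamate, was lower in Hyp pools by a log2 difference of -0.41 ± 0.08. Normal pools ran from 1357.9 to 2024.4 (median 1760) and Hyp pools from 753.8 to 1766.9 (median 1367.7). The genotypes did not overlap in 3 of the 4 combinations of diet and sex, and the difference was -0.61 ± 0.11 in females and -0.21 ± 0.11 in males. The genotype by sex term of 0.40 ± 0.16 did not pass (adjusted p = 0.728). The sex difference was 0.32 ± 0.08 (adjusted p = 0.00904). It was 0.52 ± 0.16 in Hyp pools on either diet, 0.23 ± 0.16 in normal pools on the low phosphorus diet and -0.00 ± 0.16 in normal pools on the control diet. The diet difference was -0.11 ± 0.08, the closest to 0 after that of Psph.

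Arg2 had the widest sex difference of the 9 genes, at -2.36 ± 0.11 on the log2 scale (limma adjusted p = 1.59e-12). In normal females its signal was 609.2, 683.7 and 739.1 on the control diet, and 445.4, 524.3 and 666.2 with low phosphorus. In Hyp females it was 725.6, 932.3 and 1320.7 on the control diet, and 594.6, 598.0 and 587.1 with low phosphorus. All 12 female pools lay above all 12 male pools. In normal males it was 154.7, 122.2 and 84.7 on the control diet, and 107.5, 80.2 and 119.8 with low phosphorus. In Hyp males it was 282.5, 225.4 and 261.1 on the control diet, and 84.5, 92.9 and 127.8 with low phosphorus. Hyp males on the control diet stood above all other male pools and were the male group that exceeded the array median, so male values elsewhere are dim.

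The genotype difference of Arg2 was 0.82 ± 0.16 on the control diet and 0.06 ± 0.16 with low phosphorus. The diet difference was -0.27 ± 0.16 in normal pools and -1.02 ± 0.16 in Hyp pools. The genotype by diet term was -0.76 ± 0.23, a description that did not pass the adjusted threshold. The other Arg2 probe set was above the array median on 10 female and 0 male arrays, so it passed the filter only through females and its size of difference is uncertain. Male pools gave 23.3 to 132.9 on it and female pools 147.3 to 476.2, without overlap. On that probe set the genotype by diet term was -1.39 ± 0.31, which did not pass either. Its diet difference was 0.15 ± 0.22 in normal pools and -1.24 ± 0.22 in Hyp pools, so the estimates of the probe sets differ in sign in normal pools, where neither is large beside its error.

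Odc1, the gene of ornithine decarboxylase, was brighter in all 12 male pools than in any female pool. In normal males its signal was 9081.0, 7633.7 and 8254.9 on the control diet, and 5841.4, 4391.6 and 5193.7 with low phosphorus. In Hyp males it was 5879.2, 5370.7 and 6181.6 on the control diet, and 6417.2, 5338.9 and 5447.2 with low phosphorus. Normal males on the control diet were above all other pools, and the Hyp males of the diets overlapped. In normal females it was 2828.3, 3149.4 and 2965.5 on the control diet, and 1744.0, 1965.3 and 2110.7 with low phosphorus. In Hyp females it was 3099.4, 2460.3 and 2792.4 on the control diet, and 2639.6, 2461.7 and 3094.8 with low phosphorus. Normal females on the low phosphorus diet were the lowest group, and the other female groups overlapped.

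The sex difference of Odc1 was 1.25 ± 0.06 on the log2 scale (limma adjusted p = 3.98e-12), and 1.07 to 1.48 within genotype and diet. The diet difference was -0.66 ± 0.09 in normal pools and -0.02 ± 0.09 in Hyp pools. The genotype difference was -0.31 ± 0.09 on the control diet and 0.33 ± 0.09 with low phosphorus, which average to 0.01 ± 0.06. The Odc1 genotype by diet term was 0.64 ± 0.13 (95% interval 0.37 to 0.90), and 0.54 to 0.66 in the other settings. It did not pass the adjusted threshold and, being close to the contrasts used in the choice, it tests nothing. The term was 0.41 ± 0.13 and 0.57 ± 0.14 on the other Odc1 probe sets, whose sex differences were 0.80 ± 0.07 and 1.13 ± 0.07 (limma adjusted p = 1.20e-08 and 1.90e-10). These probe sets are of kinds that can match related transcripts, and their match to Odc1 pseudogenes was not tested.

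**Figure D3:**
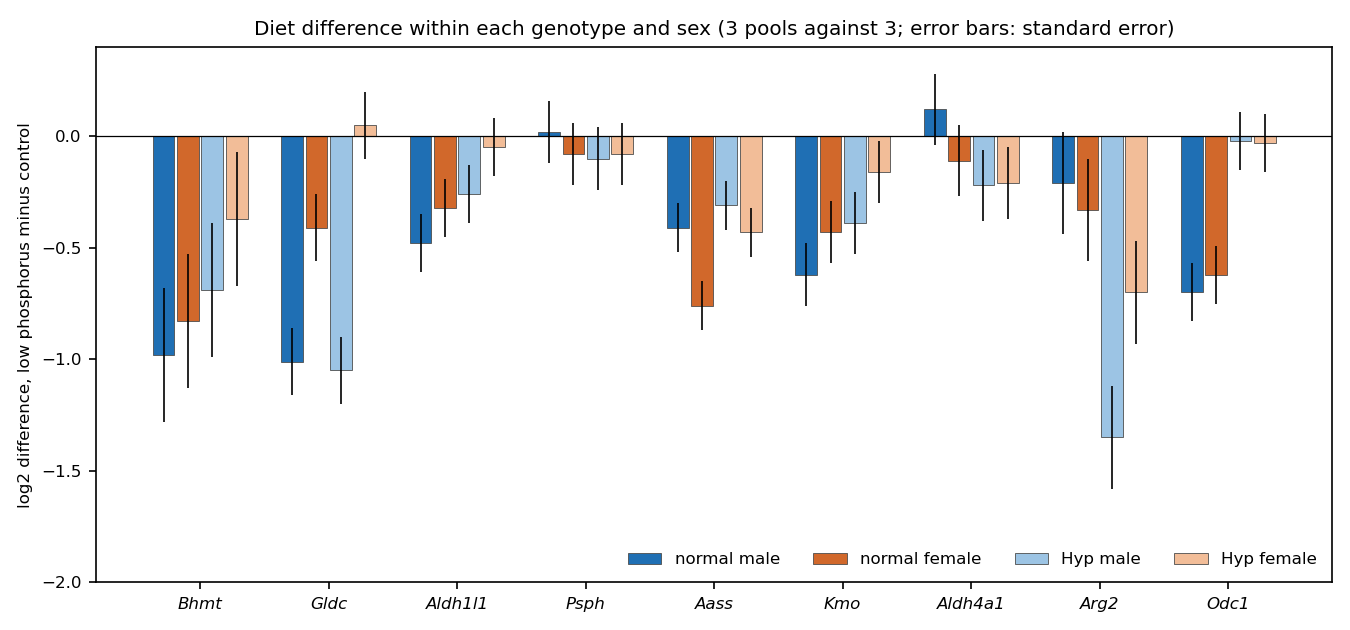
Log2 difference between the low phosphorus and the control diet for each gene within each genotype and sex, 3 pools against 3, with standard errors from the limma fit as bars. The difference for Odc1 is -0.70 and -0.62 in normal males and females and -0.02 and -0.03 in Hyp, and that for Gldc is -1.01 and -1.05 in normal and Hyp males and -0.41 and 0.05 in females.

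As a set, the 9 genes had a median diet difference of -0.40, against 0.01 over all features, and a median genotype difference of 0.25, against -0.00. Since the choice of the genes used both contrasts, how many lie past the adjusted threshold of 0.05 follows in part from that choice, and the counts are given only as a description from which nothing is read. For diet 7 lay past it and lower (all but Aldh4a1 and Psph), with 0.354% of all features. For genotype 3 lay past it and higher (Aass, Arg2 and Kmo), with 1.04% of features, and 2 lower (Aldh4a1 and Bhmt), with 0.907%. Arg2 left the genotype count without any 1 of 19 pools, and also with median scaling, without the filter, with every kept probe set and with the mean of probe sets. Aldh1l1 left the diet count without any 1 of 16 pools, with quantile normalization and without the filter, and Bhmt left it without the filter. No gene passed the genotype by diet, genotype by sex or diet by sex term, for which 0.0161%, 0.0805% and 0% of features did. For genotype by diet, close to the contrasts used in the choice, this is a description. Median scaling moved the genotype by diet median of all features by -0.185.

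The other genes of the surrounding pathways were taken from 9 lists with 183 genes, of which 145 were measured. Of these, 42 were higher and 27 lower in males by limma (47.6% of those measured, where 15.8% of all features were called), and with median scaling 53 and 17. Their median sex difference was 0.03 against -0.05 over all features. For genotype 3 were higher and 5 lower in Hyp (5.52%, where 1.95% of all features were called), and for diet 2 were higher and 5 lower (4.83%, against 0.772% of all features, 0.418% higher). No pathway gene passed an interaction.

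**Figure D4:**
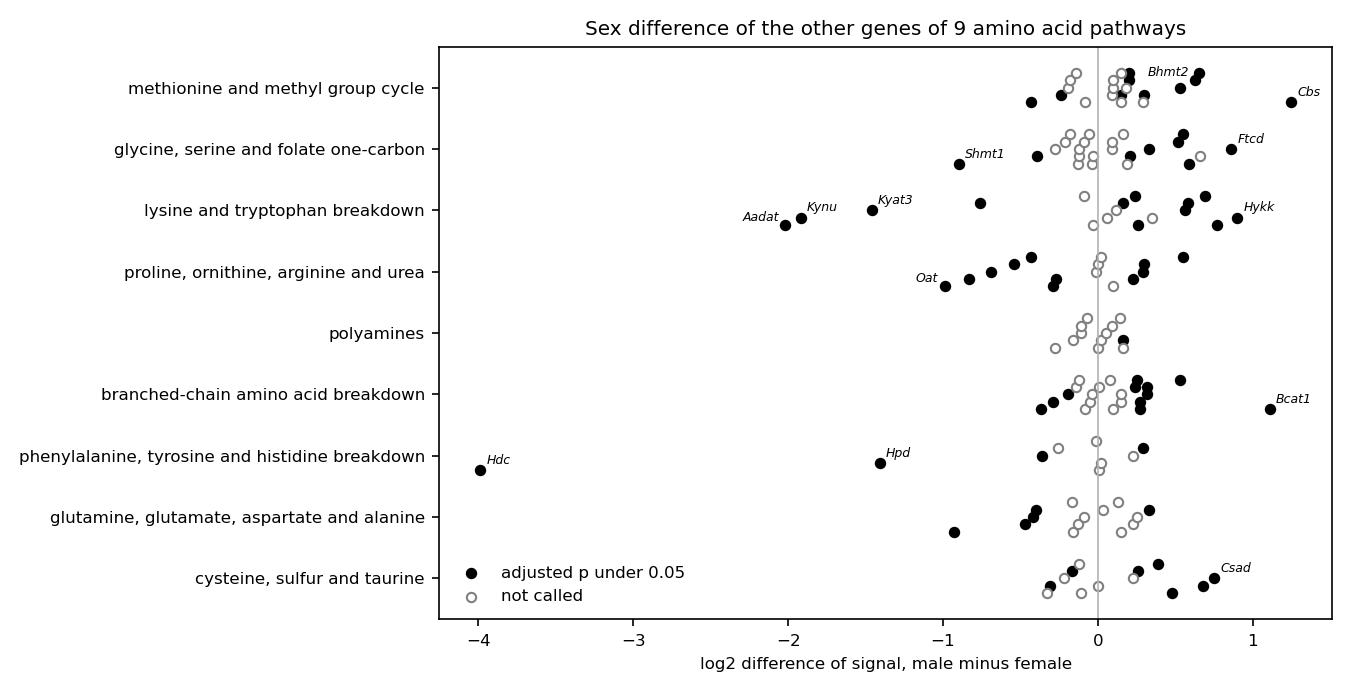
Log2 difference of signal between male and female pools (12 against 12) for each of the 145 measured genes of the 9 pathway lists, one point a gene; filled points have a limma adjusted p under 0.05. The lysine and tryptophan list runs from -2.02 for Aadat to 0.90 for Hykk, while 1 of 12 polyamine genes was called.

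In the methionine and methyl group cycle list 8 genes were higher and 2 lower in males, of 21. Cystathionine beta-synthase (Cbs), which takes homocysteine away from remethylation, averaged 1573 ± 116 (SD, n = 12) in males and 663 ± 75.8 in females (1.25 ± 0.07, adjusted p = 5.87e-12). Ahcy, which releases homocysteine, was higher in males by 0.65 ± 0.07, and Pipox, which oxidises sarcosine and pipecolate, by 0.53 ± 0.06. The lower 2 were the methionine salvage genes Apip (-0.24 ± 0.06) and Enoph1 (-0.43 ± 0.12). Both calls were lost with median scaling, and that for Enoph1 also with quantile normalization. On the betaine route, which supplies Bhmt and receives its dimethylglycine, Chdh was higher in males by 0.30 ± 0.06 and Sardh by 0.15 ± 0.05. The Sardh call was lost without any 1 of 19 pools and with quantile normalization. It was also lost without the filter, with every kept probe set and with the mean of probe sets. Dmgdh (0.18 ± 0.06, adjusted p = 0.058) and Cth (-0.19 ± 0.07, adjusted p = 0.0523) did not pass. Sardh was also lower in Hyp pools (-0.23 ± 0.05, adjusted p = 0.0187), a call lost with median scaling. No gene of this list passed for diet.

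Among 23 genes of glycine, serine and folate one-carbon metabolism, 6 were higher and 2 lower in males. The cytosolic serine hydroxymethyltransferase gene Shmt1 was lower in males, at 616 ± 97.2 (SD, n = 12) against 1143 ± 138 in females (-0.90 ± 0.07, adjusted p = 3.88e-09). Its mitochondrial counterpart Shmt2 was higher in males, at 2308 ± 300 against 1532 ± 219 (0.59 ± 0.06, adjusted p = 4.04e-07). Ftcd, which passes carbon from histidine to folate, was higher in males by 0.86 ± 0.13, Dao, the D-amino acid oxidase gene, by 0.52 ± 0.07, and the folate hydrolase gene Ggh was lower by 0.39 (-0.39 ± 0.07). Among partners of Gldc in glycine cleavage, Dld, which also serves other dehydrogenase complexes and was named after its value was seen, was higher in males by 0.21 ± 0.06 (adjusted p = 0.0295, lost without the filter or without any 1 of 8 pools). Gcsh of the same system, and Phgdh and Psat1 of the serine route that Psph completes, did not pass for sex: Gcsh gave -0.03 ± 0.07, Phgdh -0.18 ± 0.10 and Psat1 0.16 ± 0.07 (adjusted p = 0.824, 0.239 and 0.155). For genotype Psat1 was higher (0.32 ± 0.07, adjusted p = 0.0278, lost without any 1 of 10 pools or without the filter). Shmt2 was lower (-0.30 ± 0.06, adjusted p = 0.00856, lost with median scaling and with the mean of probe sets). For diet Aldh1l2, the mitochondrial counterpart of Aldh1l1, was higher, at 99.7 ± 13.6 on the low phosphorus and 70.6 ± 12.2 on the control diet (0.51 ± 0.10, adjusted p = 0.018). That call was lost without the filter, with adjustment within each chip and with a trended, robust variance.

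In the lysine and tryptophan list 12 of 17 genes were called for sex, 8 higher and 4 lower in males. The aminoadipate aminotransferase gene Aadat, which acts after Aass and also on kynurenine, had a mean of 4161 ± 765 (SD, n = 12) in males and 16663 ± 1537 in females (-2.02 ± 0.07, adjusted p = 1.67e-14). Kynureninase (Kynu) was lower in males by -1.92 ± 0.10 (adjusted p = 2.90e-11), a call lost without the filter. The kynurenine aminotransferase gene Kyat3 was lower in males by -1.46 ± 0.06 (adjusted p = 8.14e-14). Haao, which acts after Kynu, was higher in males by 0.56 ± 0.05, Hykk, the hydroxylysine kinase gene, by 0.90 ± 0.06, and the thiolase gene Acat1 by 0.77 ± 0.05. Gcdh, further along lysine breakdown, gave 0.24 ± 0.07 (adjusted p = 0.0352). That call was lost without any 1 of 11 pools, with quantile normalization and without the filter. Genes called in this list thus lay on both sides, and none of its genes passed for genotype or diet.

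Among 15 genes of proline, ornithine, arginine and urea metabolism, 4 were higher and 7 lower in males. Ornithine aminotransferase (Oat), which competes with Odc1 for ornithine, was 2297 ± 348 (SD, n = 12) in males and 4537 ± 590 in females (-0.99 ± 0.09, adjusted p = 8.44e-08), the direction of Arg2. Prodh2, the hydroxyproline dehydrogenase gene, was lower in males by -0.83 ± 0.09 and the cystine and dibasic amino acid carrier gene Slc7a9 by -0.69 ± 0.07. Prodh, upstream of Aldh4a1, was higher in males by 0.23 ± 0.07 (adjusted p = 0.0249), as was the mitochondrial ornithine carrier gene Slc25a15 (0.29 ± 0.08), and Ddah1, which clears methylarginines, by 0.55 ± 0.07. Ass1 gave 0.30 ± 0.09 (adjusted p = 0.0322). That call was lost without any 1 of 10 pools, without the filter and with adjustment within each chip. For genotype Hoga1, which acts on hydroxyproline carbon, was lower in Hyp (-0.32 ± 0.07, adjusted p = 0.0156). For diet Slc7a7, a basolateral carrier of dibasic amino acids, was higher (0.34 ± 0.06, adjusted p = 0.00321).

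Of 12 measured polyamine genes around Odc1, spermidine synthase (Srm) was called for sex, at 0.16 ± 0.05 (adjusted p = 0.0301, lost without any 1 of 7 pools). That is 8.33% of the list, below the 15.8% of all features called for sex. The antizyme gene Oaz1, whose product sends ornithine decarboxylase to the proteasome, gave 0.02 ± 0.05, the antizyme inhibitor gene Azin1 -0.16 ± 0.08 and the spermidine acetyltransferase gene Sat1 0.14 ± 0.09 (adjusted p = 0.879, 0.175 and 0.33). None of the 12 passed for genotype or diet.

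In the remaining lists, 11 of 21 genes of branched-chain amino acid breakdown were called for sex, 8 of them higher in males. These included Bcat1, the cytosolic branched-chain aminotransferase gene (1.11 ± 0.16), and Ivd (0.53 ± 0.05). Of 9 genes of phenylalanine, tyrosine and histidine breakdown, Hpd, the hydroxyphenylpyruvate dioxygenase gene, was lower in males (-1.41 ± 0.08, adjusted p = 9.98e-12), while Fah was higher (0.29 ± 0.06). Hdc, which makes histamine, was called lower in males, but it exceeded the array median on 3 arrays. Its means were 6.97 in males and 148 in females, so it passed the filter mainly through females and no size is given. Hdc is 1 of the 27 pathway genes counted lower in males. Uroc1, which breaks down urocanate from histidine, was higher in Hyp pools, at 1141 ± 164 (SD, n = 12) against 770 ± 181 (0.59 ± 0.07, adjusted p = 3.88e-05), a call lost with the mean of its probe sets. Of 14 genes of glutamine, glutamate, aspartate and alanine, 4 were lower on the low phosphorus diet: Pck1 (-0.74 ± 0.09), Slc38a3 (-0.66 ± 0.08), Glud1 (-0.47 ± 0.06) and Abat (-0.24 ± 0.06). Abat, named after its value was seen to complete the 4, lost its call without any 1 of 22 pools. That call was also lost with median scaling, without the filter, with every kept probe set and with the replicate block. For sex 5 genes of this list were called (35.7%, where 15.8% of all features were), 1 higher and 4 lower in males. The lower ones included Pck1 (-0.47) and Glud1 (-0.40). Of 13 genes of cysteine, sulfur and taurine, 5 were higher in males, among them Csad at 0.75 ± 0.05 and Gss at 0.48 ± 0.05, and 2 lower. Ethe1, the sulfur dioxygenase gene, and Fmo1 were lower in Hyp (-0.49 ± 0.11 and -0.22 ± 0.05), both calls lost with median scaling and that for Ethe1 also without the filter. Cdo1 was higher in Hyp (0.36 ± 0.09, adjusted p = 0.0499). The Cdo1 call was lost without any 1 of 21 pools, without the filter and with every kept probe set. Fmo1 was also lower on the low phosphorus diet (-0.22 ± 0.05, adjusted p = 0.0335). That call was lost without any 1 of 18 pools, with median scaling and without the filter.

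The 5 genes whose 8 group means spanned at least 1 on the log2 scale were set against the 12838 named features by the root mean square difference of centred group means, over 8 groups, which is a description. For Bhmt the nearest features were Enox1 (0.41), Gm5547 (0.48) and Fcmr (0.50), and for Arg2 Il18bp (0.34), Gsta4 (0.40) and Aadat (0.41). For Gldc they were Prom2 (0.22), Zfp934 (0.26) and Trpv6 (0.26). For Aass they were Nat8f2 (0.14), Esr1 (0.17) and Zdhhc2 (0.17), and for Odc1 Olfm4 (0.16), Sucnr1 (0.19) and C8g (0.20). Aadat was the 1 gene of the pathway lists among these 15.

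The tissue and sex labels were checked against marker genes. All markers of the proximal tubule, thick limb and distal tubule lists passed the filter, Xist was 1723 in females against 124 in males, and Eif2s3y was 260 in males against 3.1 in females. In whole-kidney RNA, fewer cells of a type and less RNA per cell cannot be told apart. All 8 markers of the straight proximal tubule were measured, and their summed signal was 57527 to 73987 in males and 36009 to 42927 in females. The male-high markers included Slc7a13, Cyp7b1 and Acsm3, the last at a mean of 42.1 in females, while Slc22a19 and Slc5a1 were higher in females. Other lists were lower in males in part: 3 of 3 measured podocyte, 3 of 5 thick limb, 3 of 5 distal convoluted and connecting tubule, 2 of 5 intercalated cell, 2 of 4 endothelium, 2 of 5 leukocyte and 1 of 5 principal cell markers. So were 4 of 7 measured stress and immediate early genes. The 10 of that list with a probe set, dim ones included, summed to 2424 to 3875 in males and 3408 to 4957 in females. Over all features 9.78% were called lower in males, a share that depended on the scaling. The marker calls are from the main setting, and whether they hold with median scaling was not tested. For genotype, the 9 convoluted proximal tubule markers summed to 44655 to 50319 in normal and 34979 to 45997 in Hyp pools, with 6 of 9 lower and Slc22a8 higher. Called higher in Hyp were 3 of 8 straight proximal tubule markers, 2 of 5 thick limb markers and 3 of 5 intercalated cell markers, the last summing to 2258 to 4028 in normal and 3135 to 4593 in Hyp pools. Of 5 distal convoluted and connecting tubule markers 1 was higher and 2 lower in Hyp. The genotype by diet term was called for 1 of these 5, and genotype by sex for 1 of 9 convoluted proximal tubule markers (0.0161% and 0.0805% of all features). Over all features 1.04% were called higher and 0.907% lower in Hyp. For diet, the 5 distal convoluted and connecting tubule markers summed to 42154 to 64417 on the control and 35314 to 58150 on the low phosphorus diet, with Calb1 (-0.77) and S100g (-1.22) lower. The intercalated cell markers summed to 2258 to 3638 on the control and 2911 to 4593 on the low phosphorus diet, with 2 of 5 higher, and 2 of 9 convoluted proximal tubule markers were higher and 1 lower. For diet 0.418% of all features were called higher and 0.354% lower. Of 19 liver markers 17 had a probe set and 5 passed the filter. The signals of all 17, dim ones included, summed to 1560 to 2506 in males and 1650 to 3351 in females. By diet the sums were 1961 to 3351 on the control and 1560 to 2767 on the low phosphorus diet. Among the 5 that passed, Alb, lower on the low phosphorus diet (-0.78), was 396 in females and 261 in males, while Apoh was higher in males. For diet 1 of the 5 liver markers was called, and the list median was 0.01. The 4 fat markers with a probe set, the dim Lep included, summed to 1733 to 3725 in normal and 1046 to 1832 in Hyp pools, with Car3 lower in Hyp (-1.45). Of the 3 measured fat markers 1 was called for genotype, and the list median was -0.10. The part of these marker differences in the differences of the 9 genes was not tested.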

How the data were processed

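Mouse kidney RNA from 24 pools was measured on Affymetrix 430A and 430B arrays. The deposited values are linear signal intensities per probe set, and the submitters' processing notes name GCOS 1.2 as the authors' software. Their expression algorithm is not given in the sources used here. On every array, the trimmed mean of the 100 probe sets on both chips was 1200 (2% trimmed from each end), so the authors had scaled arrays to them. Array medians were 164.6 to 211.1 (430A) and 50.8 to 68.3 (430B); the number of pools limits precision. Detection calls were not used here.

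Signals were floored at 1 and log2 transformed. Probe sets above the array median on at least 3 arrays were kept, and 1 per gene was tested, taking 430A before 430B and then the brightest. Models with genotype, diet, sex and their interactions over all 8 groups (16 residual degrees of freedom) were fitted with limma 3.58.1 in R 4.3.3, with Benjamini-Hochberg adjustment over 18642 features at 0.05, and tested on simulated data. Gene names came from the platform annotation, with 35041 probe sets naming 1 gene, 936 several and 9160 none. By the naming rule, all 9 genes were named, with direct pathway partners whatever their values. Of those partners, Mat2a, Amt, Pycr1, Arg1, Amd1 and Sms were not among the measured genes of the lists, so no value is given for them. Per pathway list, comparison and direction, up to 3 called genes with the smallest adjusted p were to be named too. For sex this was kept in part: not every such gene of the branched-chain, histidine, glutamine and sulfur lists is named. The members and lists were chosen with earlier results of these data known. Alternatives changed the scaling, filter, pseudocount, probe set rule, adjustment, variance model and pools, and added a replicate block.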

Additional observations from a re-analysis of the deposited data

How the results depend on the processing

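No difference of the 9 genes turned direction while called. Of 69 pathway genes called for sex, 20 lost the call in another setting and 9 without 1 pool, and Ado, Afmid and Dlst turned direction in 1 setting each; of 8 called for genotype and 7 for diet, 7 and 3 lost it in a setting. The sex calls of the 9 genes (4 higher, 4 lower in males) held in all 24 fits leaving out 1 pool and in the other settings, except Psph with median scaling. Bhmt could not be fitted under the strict filter. Pathway genes for genotype numbered 3 higher and 5 lower: 1 higher without the filter and 1 lower with median scaling (leaving out 1 pool, 1 to 4 and 5 to 7). For diet they numbered 2 higher and 5 lower: 1 higher with adjustment within each chip or a trended, robust variance, and 3 lower without the filter or 8 with that variance (2 to 3 and 3 to 6 leaving out 1 pool). For sex, median scaling gave 17 lower for 27 (leaving out 1 pool, 24 to 29, and 38 to 44 higher). For genotype by diet, which for members is a description, 0 members passed, or 1 with a trended, robust variance. Features higher numbered 1, or 2 with every kept probe set and 5 with that variance (1 to 2 leaving out 1 pool). Features lower numbered 2, or 1 with the strict filter (2 to 3). For genotype by sex, 0 pathway genes passed, or 1 with the strict filter and 1 with a trended, robust variance (0 to 1 leaving out 1 pool); features numbered 12 higher and 3 lower, or 20 and 8 with that variance (10 to 19 and 3 to 5). For diet by sex, 0 members and 0 features passed, or 1 member and 3 features lower with a trended, robust variance (0 to 1 leaving out 1 pool, either direction); 1 feature was lower with 50 added and 1 without the filter, as was 1 pathway gene. Diet features higher numbered 78, with 50 (median scaling) to 104 (no filter). The cause of these changes was not tested. Pools with the same number in the titles deviated alike from their group means, but weakly. Their correlations of deviations ran from -0.052 to 0.0871, none over 0.1. The median was 0.0282, against -0.0149 for pools of different numbers, and 22 of 24 pools correlated best with their own number. The labels do not say what the number marks. With the replicate block, 46 and 28 pathway genes were higher and lower for sex, 4 and 7 for genotype and 2 and 6 for diet, and no sex call of the 9 genes changed. Dim signal limits Bhmt and Arg2 in males, and Bhmt also in Hyp females, where it exceeded the array median in 3 of 6 pools.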
